A study of Mus musculus with 8 samples.

Results

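The genes described here are 36 hypoxia-responsive targets outside glycolysis, chosen by symbol from the 22013 genes of a deposited count table, where all 36 were found. Their messenger RNA was measured in RAW264.7, a transformed macrophage line of mouse leukemic origin, so every library comes from the same line. A total of 4 libraries were made from cells given recombinant FSTL1 protein (rFSTL1, 100 ng/mL, 24 h), and 4 from cells given PBS, with no other agent or genotype named. How long the PBS cells were kept is not given in the labels. FSTL1 is a secreted glycoprotein, and the study asked how macrophages respond to it. Nothing in the labels says whether the libraries came from separate cultures, so p-values measure the spread between these libraries, which may be technical. Total counts were 15183118 to 20234477 per library under PBS and 15062023 to 19260960 under rFSTL1. Of 10 macrophage markers, 9 passed the count filter and 0 were called between the groups. The exception was Mertk, and fibroblast, endothelial, epithelial and lymphocyte markers had at most 12 counts in any library.

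Hypoxia-inducible factor (HIF) is a transcription factor whose alpha subunit is hydroxylated by oxygen-dependent enzymes and then destroyed. When oxygen is scarce, or when inflammatory signals stabilize the subunit in macrophages, HIF binds short DNA elements and raises genes that let a cell live with less respiration. Beyond glucose breakdown, these targets remove mitochondria, modify collagen and chromatin, export acid and feed back on transcription.

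HIF elements share a core of ACGTG or GCGTG, and the promoters below show how these letters lie in some of the members. Matches were many or few both in members that rose and in members that did not pass the test. RefSeq promoter windows (build GRCm38.p6), 300 bases from 250 before to 50 after a start site, were found for 27 of the 36 members, the others being Ndrg1, Bnip3l, Ndufa4l2, Plod2, Lox, Loxl2, Kdm4b, Bhlhe40 and Zfp395. Bnip3 (chr7:138909457-138909756, minus strand), Fam162a (chr16:36071512-36071811, minus strand) and Jmjd6 (chr11:116843400-116843699, minus strand) are members whose RNA passed the test. Ankrd37 (chr8:45999801-46000100, minus strand) had the largest fold change when all libraries were used, without passing it. Kdm3a (chr6:71632868-71633167, minus strand, 1 of its 3 windows), Car12 (chr9:66713436-66713735, plus strand) and Wsb1 (chr11:79254646-79254945, minus strand, 1 of its 2 windows) did not pass it. Each is written 5′ to 3′ along the gene, and capitals mark ACGTG or GCGTG on either strand.
Bnip3: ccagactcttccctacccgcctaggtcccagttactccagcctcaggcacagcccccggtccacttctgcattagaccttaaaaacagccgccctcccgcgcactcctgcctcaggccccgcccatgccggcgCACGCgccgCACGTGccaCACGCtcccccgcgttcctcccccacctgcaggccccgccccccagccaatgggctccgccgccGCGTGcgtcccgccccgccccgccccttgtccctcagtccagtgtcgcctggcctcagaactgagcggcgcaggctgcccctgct
Fam162a: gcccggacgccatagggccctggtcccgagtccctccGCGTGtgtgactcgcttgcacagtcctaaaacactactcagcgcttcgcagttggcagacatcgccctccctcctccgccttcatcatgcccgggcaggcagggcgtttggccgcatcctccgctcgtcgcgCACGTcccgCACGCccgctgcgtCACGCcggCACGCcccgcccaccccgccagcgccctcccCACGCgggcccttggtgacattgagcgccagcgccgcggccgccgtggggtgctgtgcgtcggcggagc
Jmjd6: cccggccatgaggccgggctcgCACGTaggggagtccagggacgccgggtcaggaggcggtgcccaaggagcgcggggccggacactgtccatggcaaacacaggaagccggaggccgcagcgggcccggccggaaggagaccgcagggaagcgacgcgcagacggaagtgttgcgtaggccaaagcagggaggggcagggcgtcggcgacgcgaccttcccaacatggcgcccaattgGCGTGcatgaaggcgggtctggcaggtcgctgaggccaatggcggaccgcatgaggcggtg
Ankrd37: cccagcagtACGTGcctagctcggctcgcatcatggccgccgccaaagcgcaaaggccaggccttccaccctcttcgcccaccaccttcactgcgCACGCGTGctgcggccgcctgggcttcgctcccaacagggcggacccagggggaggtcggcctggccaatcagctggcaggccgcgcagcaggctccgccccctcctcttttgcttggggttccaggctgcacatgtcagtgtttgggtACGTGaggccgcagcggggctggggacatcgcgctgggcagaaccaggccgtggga
Kdm3a: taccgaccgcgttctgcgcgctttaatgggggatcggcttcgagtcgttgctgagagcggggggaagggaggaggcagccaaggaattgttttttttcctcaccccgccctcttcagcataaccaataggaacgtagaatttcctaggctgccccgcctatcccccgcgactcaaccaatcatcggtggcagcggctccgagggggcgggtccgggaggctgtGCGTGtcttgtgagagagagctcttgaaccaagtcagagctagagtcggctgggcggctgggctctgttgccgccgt
Car12: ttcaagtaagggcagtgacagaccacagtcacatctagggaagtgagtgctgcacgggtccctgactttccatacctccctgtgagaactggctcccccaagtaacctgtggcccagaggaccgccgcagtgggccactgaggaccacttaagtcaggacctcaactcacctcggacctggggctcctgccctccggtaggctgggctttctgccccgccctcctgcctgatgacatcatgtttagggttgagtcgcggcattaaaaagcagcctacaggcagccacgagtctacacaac
Wsb1: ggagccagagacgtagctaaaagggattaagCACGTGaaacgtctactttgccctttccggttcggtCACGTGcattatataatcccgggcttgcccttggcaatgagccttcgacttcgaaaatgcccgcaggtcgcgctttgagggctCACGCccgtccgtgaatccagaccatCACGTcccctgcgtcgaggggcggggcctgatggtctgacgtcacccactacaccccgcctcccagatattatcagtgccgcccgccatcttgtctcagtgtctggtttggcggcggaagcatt

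Bnip3 held 5 matches, among them a single palindromic site that reads ACGTG on both strands and counts as 2. Fam162a held 6 matches, Ankrd37 held 4, Jmjd6 held 2, Kdm3a held 1 and Car12 held 0. The Wsb1 window shown held 6, as did a window of Kdm4c, while the other window of each held 0. The other windows of Kdm3a also held 0, and which start site these cells use was not measured. Neither Wsb1 nor Kdm4c passed the test, and their log2 fold changes were -0.01 and -0.02. At least 1 match lay in a window of 25 of the 27 members, which is 92.6%. Among all genes with a RefSeq window 46.7% had one, and over the genes tested here 69.3% did, so the letters are common in promoters of expressed genes. By window rather than by gene, matches were in 77.5% of the members' 40 windows and in 63.0% of the windows of the genes tested. A match is a description of the letters, and binding was not measured.

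Levels are given as CPM, read counts scaled to library size with TMM factors, and fold changes as log2 of rFSTL1 over PBS with their standard error (SE). For the 10748 genes with enough counts, the groups were tested by the quasi-likelihood method of edgeR with Benjamini-Hochberg adjustment over all of them. Of the 36 members, 28 passed the count filter. The other 8 were P4ha2, Plod2, Lox, Loxl2, Ndufa4l2, Rora, Zfp395 and Tmem45a, with at most 4 counts in any library. In bulk RNA, a higher level in every cell cannot be told apart from more cells that carry the transcript.

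PBS replicate 4 stood apart for these genes. Its mean over the 28 tested members was -0.12 on the log2(CPM + 1) scale relative to the PBS mean, against 0.03 to 0.05 in the other PBS libraries and 0.17 to 0.24 in the rFSTL1 libraries. It was the lowest PBS library for 20 of the 28 members, whereas it was lowest for 26.7% of all genes tested. The members' median ratio of this library to the mean of the other PBS libraries was 0.922, against 0.997 over all genes. The fits were therefore repeated without it. The rFSTL1 libraries also differed among themselves. Replicates 1 and 2 both lay above replicates 3 and 4 for 14 of the 28 members and 26.8% of all genes, and the reverse held for 5 members and 27.4% of all genes.

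**Figure D1:**
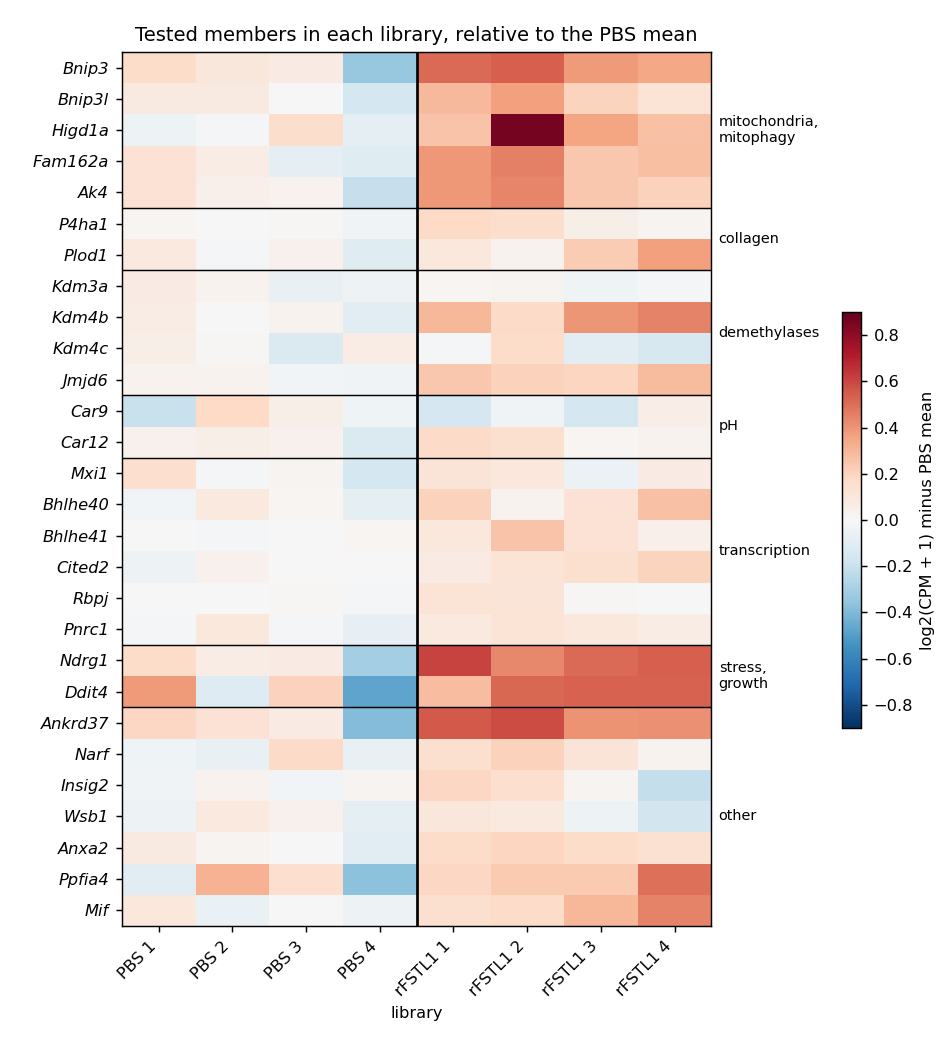
Heat map of log2(CPM + 1) minus the PBS mean for the 28 tested members (rows, by function) in each of the 8 libraries (columns). PBS replicate 4 is the bluest PBS column for most rows, and under rFSTL1 the reddest cells are in rows such as Higd1a (replicate 2), Ndrg1, Bnip3 and Ankrd37.

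Ndrg1, Bnip3, Fam162a and Jmjd6 rose under rFSTL1, and 0 members fell. These are 4 of 28 tested members with an adjusted p under 0.05, against 0.344% of all genes tested (0.326% higher and 0.0186% lower). An unadjusted p under 0.05 was found for 17 members, all with a positive fold change, and for 15.9% of all genes (8.29% higher and 7.56% lower). At an adjusted p under 0.1 there were 9 members and 1.24% of all genes. In 14 members every rFSTL1 library lay above every PBS library, and in 0 members below, against 4.63% and 3.53% of all genes, or 8.16% in either direction. The fold change was positive in 24 of 28 members and in 52.0% of all genes. Its median was 0.16 over the tested members and 0.01 over all genes. Without PBS replicate 4 the members' median was 0.13, and 2 members, Ndrg1 and Bnip3, kept an adjusted p under 0.05 by edgeR, against 0.111% of all genes in that fit. Without PBS replicate 2, PBS replicate 3 or rFSTL1 replicate 3, Ndrg1 was the 1 member left, against 0.102%, 0.112% and 0.148% of all genes. DESeq2 called 10 of the 23 members to which it gave an adjusted p and 2.43% of all such genes, and limma voom called 11 members and 4.22% of all genes.

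**Figure D2:**
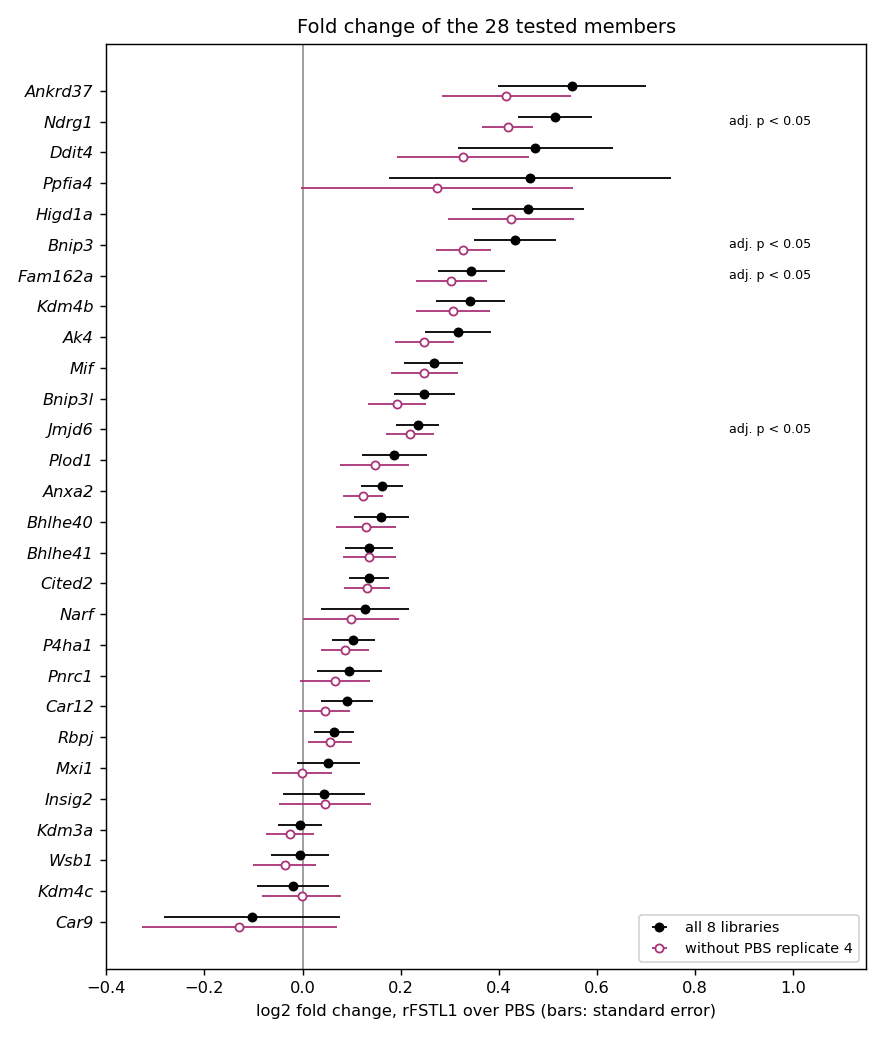
The log2 fold change of each tested member with its SE, from all 8 libraries (filled) and without PBS replicate 4 (open), with the 4 members under an adjusted p of 0.05 marked. Most open points lie closer to 0 than the filled ones, and the largest filled value is 0.55 for Ankrd37.

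The stress and growth pair held the smallest p among the members. Ndrg1 (ENSMUSG00000005125), a cytoplasmic protein of stress responses and differentiation, had 168, 157, 158 and 121 CPM in PBS replicates 1 to 4 and 229, 203, 214 and 218 CPM in rFSTL1 replicates 1 to 4. The groups did not overlap, and PBS replicate 4 was the lowest. Its mean rose from 151 ± 20.5 to 216 ± 10.99 CPM (SD, n = 4), which is 1.43 times the PBS mean. The log2 fold change was 0.51 (SE 0.08, adjusted p = 0.00676 by edgeR with Benjamini-Hochberg adjustment), and the two-sided exact permutation p was 0.0286, the smallest that 4 against 4 libraries allow. Without PBS replicate 4 it was 0.42 (adjusted p = 0.0162 by edgeR), and Ndrg1 passed in every fit that left out a library. Ddit4, an inhibitor of mTORC1 induced by stress, had 10.2, 6.92, 8.93 and 5.19 CPM under PBS and 9.42, 11.3, 11.4 and 11.4 CPM under rFSTL1. The groups overlapped through PBS replicate 1 and rFSTL1 replicate 1. The log2 fold change was 0.47 (SE 0.16, adjusted p = 0.191 by edgeR) and 0.33 without PBS replicate 4, at 79 to 223 counts per library.

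Of the 6 mitochondrial members, 5 were tested, and in all 5 the rFSTL1 libraries lay above the PBS libraries, against 4.63% of all genes. Bnip3 and Fam162a passed the test, as 0.344% of all genes did, the other 3 had adjusted p-values of 0.0585 to 0.0982, and Ndufa4l2, a respiratory chain subunit paralog, had at most 3 counts. Bnip3 (ENSMUSG00000078566), an outer membrane receptor that recruits the autophagy machinery to mitochondria, had 154, 147, 144 and 108 CPM under PBS. Under rFSTL1 it had 195, 199, 179 and 174 CPM, so that even the lowest treated library exceeded the highest control. It rose from 138 ± 20.6 to 187 ± 12.2 CPM (SD, n = 4), or by 0.43 on the log2 scale (SE 0.08, adjusted p = 0.0366 by edgeR). The value without PBS replicate 4 was 0.33 (adjusted p = 0.0406 by edgeR). Without PBS replicate 2, PBS replicate 3, rFSTL1 replicate 1 or rFSTL1 replicate 3 the adjusted p was 0.10, 0.115, 0.0590 and 0.0939 by the same edgeR test.

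Fam162a (ENSMUSG00000003955), a mitochondrial protein linked to cell death under hypoxia, had 41.7, 39.9, 35.9 and 35.2 CPM under PBS and 50.1, 52.5, 45.2 and 46.2 CPM under rFSTL1. The groups did not overlap. It rose by a log2 fold change of 0.34 (SE 0.07, adjusted p = 0.0424 by edgeR). It became 0.30 without PBS replicate 4, with an adjusted p of 0.246 by edgeR. The call was also lost without PBS replicate 2, PBS replicate 3 and each of rFSTL1 replicates 1, 2 and 3.

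Bnip3l, the paralog of Bnip3 that clears mitochondria during red cell maturation, had 105, 105, 98.6 and 88.5 CPM under PBS and 122, 128, 114 and 108 CPM under rFSTL1. The lowest treated library stood just above the highest controls. Its log2 fold change was 0.25 (SE 0.06, adjusted p = 0.0982 by edgeR) and 0.19 without PBS replicate 4. Ak4, a mitochondrial adenylate kinase, had 152, 143, 142 and 120.2 CPM under PBS and 182, 189, 164 and 160.3 CPM under rFSTL1. Again the libraries separated and PBS replicate 4 was lowest. Here the log2 fold change was 0.32 (SE 0.07, adjusted p = 0.0585 by edgeR) and 0.25 without that library. Higd1a, a small inner membrane protein that helps respiratory complexes under low oxygen, had 29.6, 30.1, 34.1 and 28.7 CPM under PBS and 36.7, 56.3, 39.4 and 36.9 CPM under rFSTL1. The value of rFSTL1 replicate 2 was far above the rest. Its log2 fold change was 0.46 (SE 0.11, adjusted p = 0.0964 by edgeR) and 0.29 without that replicate.

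**Figure D3:**
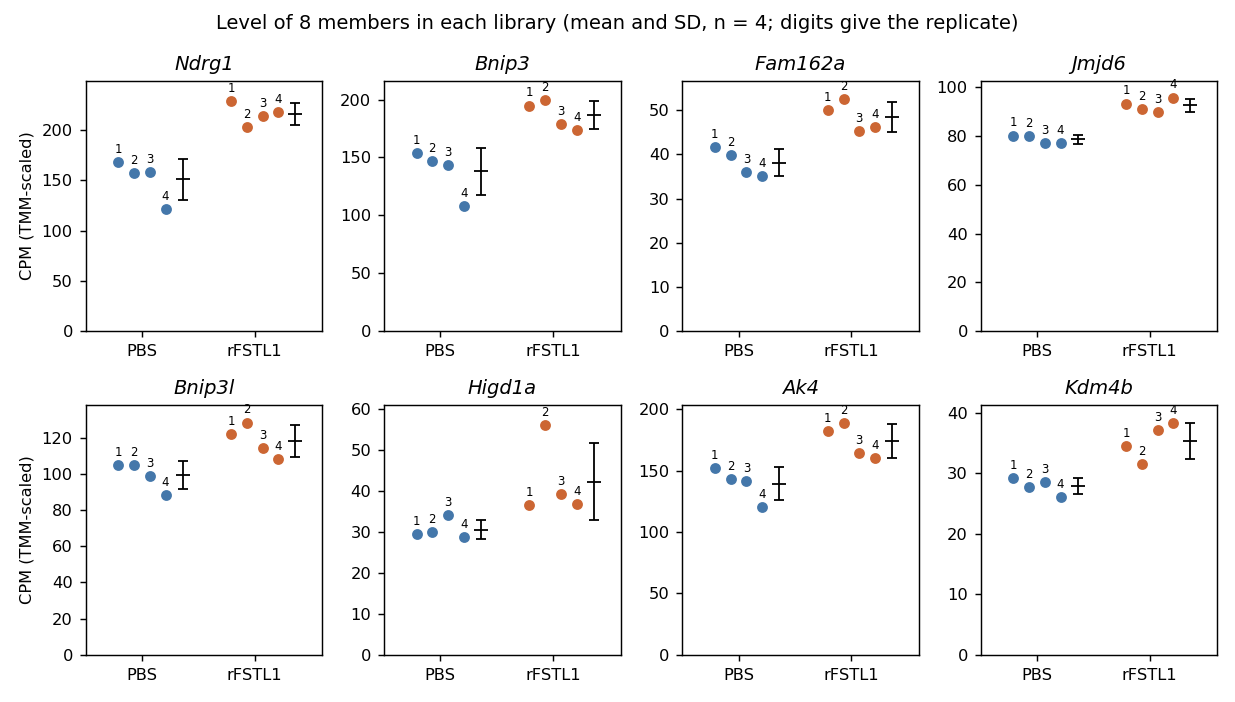
CPM of 8 members in each library (points, with the replicate number above each), with the mean and SD of each group of 4 beside them. The panels are the members with an adjusted p under 0.1 apart from Mif, whose lowest PBS library was replicate 2. In every panel the 4 rFSTL1 points lie above the 4 PBS points, and PBS replicate 4 is the lowest point in each. Both follow in part from this choice of genes. In Bhlhe41, which also separated, PBS replicate 4 was the highest control.

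The demethylase group and the collagen hydroxylases share a chemistry. Both use iron, oxygen and oxoglutarate, as the enzymes that hydroxylate HIF do. Of the 6 tested members of this kind, 4 had an unadjusted p under 0.05 and 1 passed the adjusted test, against 15.9% and 0.344% of all genes, with log2 fold changes of -0.02 to 0.34. Jmjd6 (ENSMUSG00000056962), a nuclear hydroxylase of lysines in splicing factors, had 80.2, 80.2, 77.1 and 76.9 CPM under PBS and 93.3, 91.0, 89.9 and 95.7 CPM under rFSTL1. Its replicates were close together and the groups were apart. It rose from 78.6 ± 1.82 to 92.5 ± 2.58 CPM (SD, n = 4), or by 0.24 on the log2 scale (SE 0.04, adjusted p = 0.0301 by edgeR). Without PBS replicate 4 the value was 0.22, with an adjusted p of 0.162 by edgeR. The call was lost as well without PBS replicate 1, 2 or 3 (adjusted p = 0.0604, 0.10 and 0.121 by edgeR) and without rFSTL1 replicate 3 (0.0780).

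Kdm4b, which removes methyl groups from histone H3 lysine 9, had 29.2, 27.8, 28.5 and 26.0 CPM under PBS and 34.5, 31.5, 37.1 and 38.3 CPM under rFSTL1. The groups did not overlap, and its log2 fold change was 0.34 (SE 0.07, adjusted p = 0.0526 by edgeR). It was 0.31 without PBS replicate 4. Its paralog Kdm4c had 33.2 to 38.4 CPM under PBS and 33.0 to 41.0 CPM under rFSTL1, ranges that overlapped, and a log2 fold change of -0.02 (SE 0.07). Kdm3a, another demethylase of the same mark and a familiar HIF target, had 112, 108, 101 and 102 CPM under PBS and 107, 108, 103 and 104 CPM under rFSTL1. Its means were 106 CPM in both groups, and its SE was 0.05 on the log2 scale.

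Paralogs were compared by the log2 ratio of their counts within each library, which does not depend on the scaling, over the 4 pairs with both genes tested. The pairs were chosen after the values were seen. The ratio of Bnip3 to Bnip3l averaged 0.46 in the PBS libraries (SD 0.124, n = 4) and 0.66 in the rFSTL1 libraries (SD 0.0248, n = 4), a difference of 0.20 (two-sided exact permutation p = 0.0286, adjusted p = 0.114 over the 4 pairs). It was 0.14 without PBS replicate 4. Without rFSTL1 replicate 1 or 4 the exact permutation p was 0.0571. Fewer assignments are possible there, and the ratios of the groups still did not overlap. The ratio of Kdm4b to Kdm4c differed by 0.36 (exact p = 0.0857, adjusted p = 0.171). The ratio of Car9 to Car12 differed by -0.19 (exact p = 0.257, adjusted p = 0.343), or by -0.29 without PBS replicate 1 and -0.125 without rFSTL1 replicate 1, and that of Bhlhe40 to Bhlhe41 by 0.03 (exact p = 0.83, adjusted p = 0.83). A single pair could not go below an adjusted p of 0.114 with 4 libraries a group, so these tests do not show whether a pair differed.

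Of the 6 collagen enzymes, 4 had at most 1 count in any library. P4ha1, the catalytic subunit of collagen prolyl hydroxylase, had 192, 190.3, 191 and 185 CPM under PBS and 214, 211, 196 and 193 CPM under rFSTL1. The groups were just separated, and the log2 fold change was 0.10 (SE 0.04, adjusted p = 0.272 by edgeR). Plod1, a collagen lysyl hydroxylase, had 119, 111, 116 and 104 CPM under PBS and 120.1, 115, 132 and 145 CPM under rFSTL1, where replicates 3 and 4 were high and replicate 2 lay inside the control range. Its log2 fold change was 0.19 (SE 0.07, adjusted p = 0.207 by edgeR) and 0.12 without rFSTL1 replicate 4. The paralogs P4ha2 and Plod2 had 0 counts in all 8 libraries. Lox, which crosslinks collagen, had 1 count in PBS replicate 1, and Loxl2 had 1 count in PBS replicate 3. A count of 0 allows up to 3 counts, or 0.148 to 0.200 CPM in these libraries, for counting error only.

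For pH, the cell surface carbonic anhydrases differed in level and neither passed the test, which 0.344% of all genes passed. Car9, often used as a marker of hypoxic tissue, had 2.37 to 3.38 CPM under PBS and 2.46 to 3.03 CPM under rFSTL1. The ranges overlapped, with a log2 fold change of -0.10 and a SE of 0.18 at 37 to 61 counts per library. It ran from -0.19 without PBS replicate 1 to -0.018 without PBS replicate 2. Car12 had 102, 103, 102 and 90.6 CPM under PBS and 112, 109.9, 101 and 101 CPM under rFSTL1. The low PBS value was that of replicate 4, and the log2 fold change of 0.09 (SE 0.05, adjusted p = 0.414 by edgeR) became 0.05 without it and 0.059 without rFSTL1 replicate 1. Scaled by the length of the longest GENCODE transcript, Car12 was at 26.7 and Car9 at 1.42 CPM per kilobase under PBS.

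Of the 8 transcription regulators, 6 were tested, all with a positive fold change of 0.05 to 0.16 on the log2 scale. The fold change was positive in 52.0% of all genes. Of the 6, 0 passed the adjusted test, which 0.344% of all genes passed. Cited2, which competes with HIF for the coactivator p300, had 230.1, 244, 237 and 238 CPM under PBS and 249.6, 258, 262 and 272 CPM under rFSTL1. The groups did not overlap, and the log2 fold change was 0.14 (SE 0.04, adjusted p = 0.157 by edgeR). Bhlhe41, a repressor of the circadian clock, had 105, 105, 106 and 107 CPM under PBS and 113, 127, 116 and 109 CPM under rFSTL1, with a log2 fold change of 0.14 (SE 0.05) that was 0.084 without rFSTL1 replicate 2. In this gene PBS replicate 4 was the highest control. Its paralog Bhlhe40 had 69.0, 74.9, 71.3 and 66.5 CPM under PBS and 81.4, 72.1, 77.0 and 84.6 CPM under rFSTL1. Those groups overlapped through rFSTL1 replicate 2, and the log2 fold change was 0.16 (SE 0.06, adjusted p = 0.207 by edgeR).

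Rbpj, the DNA-binding partner of Notch and the highest of the group, had 659, 657, 664 and 655 CPM under PBS. Under rFSTL1 it had 717 and 714 CPM in replicates 1 and 2 but 663 and 662 CPM in replicates 3 and 4, which lay inside the PBS range. Its log2 fold change was 0.06 with a SE of 0.04, and 0.039 without rFSTL1 replicate 1 or 2. Mxi1, a MYC antagonist, and Pnrc1, a nuclear receptor coactivator, differed by 0.05 (SE 0.06) and 0.10 (SE 0.07) on the log2 scale. Mxi1 was at -0.0013 without PBS replicate 4 and at 0.099 without PBS replicate 1. Rora, a nuclear receptor, had 1 to 4 counts per library, and Zfp395 had 1 count in PBS replicate 4.

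Among the members of other function, 3 of 7 tested had rFSTL1 libraries all above the PBS libraries and 0 passed the adjusted test, against 4.63% and 0.344% of all genes. Ankrd37, a small ankyrin repeat protein and a direct HIF target, had 5.22, 4.98, 4.74 and 3.15 CPM under PBS and 7.01, 7.21, 6.23 and 6.26 CPM under rFSTL1. With all 8 libraries its fold change was the largest of the tested members, 0.55 on the log2 scale (SE 0.15, adjusted p = 0.133 by edgeR). Without PBS replicate 4 it was 0.415, below Higd1a (0.425) and Ndrg1 (0.418). The Ankrd37 values rest on 48 to 122 counts per library. Anxa2, a calcium-dependent membrane binding protein, had 503, 484, 477 and 443 CPM under PBS and 534, 544, 534 and 523 CPM under rFSTL1, a log2 fold change of 0.16 (SE 0.04, adjusted p = 0.11 by edgeR). Mif, a macrophage cytokine, had 455, 409, 427 and 413 CPM under PBS and 470.3, 477, 525 and 579.9 CPM under rFSTL1. Replicates 3 and 4 were its highest libraries, and its log2 fold change was 0.27 (SE 0.06, adjusted p = 0.0673 by edgeR).

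Mif was the most abundant member per transcript length, at 710.3 CPM per kilobase under PBS, followed by Anxa2 at 209. It has processed pseudogenes in the mouse genome, and how their reads were assigned is not given in the sources used here. Wsb1, a subunit of a ubiquitin ligase, had means of 142 CPM in both groups. Insig2, which retains the sterol sensor SCAP in the endoplasmic reticulum, and Narf, which binds prelamin A, differed by 0.04 (SE 0.08) and 0.13 (SE 0.09) on the log2 scale. Narf was at 0.20 without PBS replicate 3. Ppfia4, a synaptic scaffold protein, had 9 to 37 counts per library and a log2 fold change of 0.46 with a SE of 0.29, which was 0.27 without PBS replicate 4. Tmem45a had 0 counts in all 8 libraries.

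**Figure D4:**
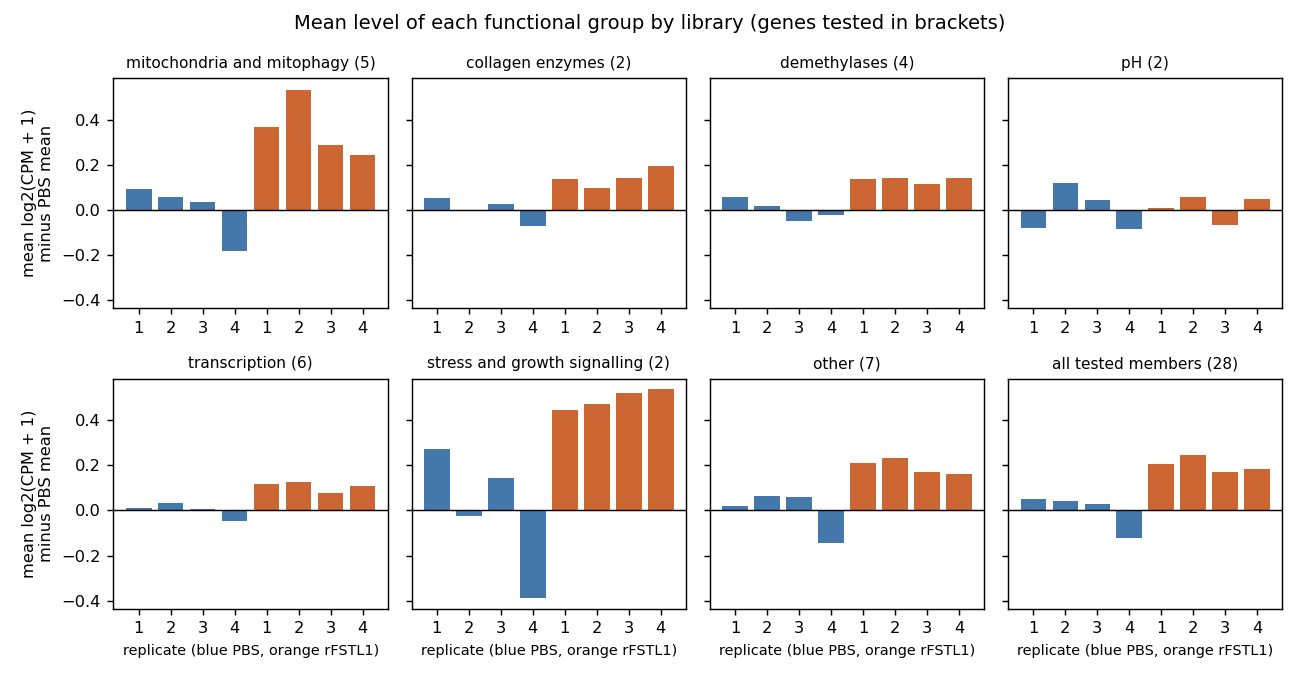
Mean log2(CPM + 1) minus the PBS mean over the tested members of each functional group, as bars for the 4 PBS (blue) and 4 rFSTL1 (orange) libraries; the last panel is the mean of all 28. Bars of PBS replicate 4 are lowest in the stress group, at -0.39, and rFSTL1 bars of the mitochondrial group run from 0.24 to 0.53.

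Some members were highest in different rFSTL1 libraries, which was not tested. The mean of the mitochondrial members relative to PBS was 0.37, 0.53, 0.29 and 0.24 in rFSTL1 replicates 1 to 4. Bnip3, Bnip3l, Fam162a and Ak4 were each higher in replicates 1 and 2 than in replicates 3 and 4. Plod1, Kdm4b, Cited2, Ddit4 and Mif had the reverse order. The transcription members' mean was 0.08 to 0.12 in the 4 rFSTL1 libraries and -0.05 to 0.03 in the PBS libraries.

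Exons of Bnip3, Higd1a, Fam162a, Bhlhe41 and Ankrd37 overlap another gene of the GENCODE annotation by at least 10% of their bases, each on the opposite strand. Whether strand was used in counting is not given in the sources used here, so such reads cannot be told apart. For Fam162a the partner is Wdr5b, with 144 to 253 counts per library, and for Ankrd37 it is Lrp2bp, with at most 5.02 counts.

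Glycolytic targets and the secreted targets give a scale for these values. Of 20 glucose transporters, glycolytic enzymes and their regulators known as HIF targets, all were tested, 5 rose (Slc2a1, Eno2, Pfkp, Pfkfb3 and Pfkl) and 0 fell, where 0.344% of all genes were called. Their median log2 fold change was 0.19, and their called values were 0.25 to 0.40. Of 8 secreted HIF targets 5 were tested and 3 rose, against the same 0.344% of all genes. Among the 3 were the angiogenic factor Vegfa (0.55) and the vasodilator peptide adrenomedullin, Adm (1.02). PBS replicate 4 was the lowest PBS library for both. Adm had 3.02 CPM in it, against 6.64 to 6.98 CPM in the other PBS libraries. The secreted targets had a median of 0.55, and the range included Angptl4 at -0.27. Of the 33 tested genes of these lists and of oxygen sensing, 8 were called with all libraries, 4 without PBS replicate 4 (0.111% of all genes in that fit) and 3 without PBS replicate 2, PBS replicate 3 or rFSTL1 replicate 3 (0.102%, 0.112% and 0.148% of all genes). Whether these lists differed from the non-glycolytic members was not tested.

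Of 12 genes of oxygen sensing, 8 were tested and 0 were called, where 0.344% of all genes were called. Their median was 0.02. At an unadjusted p under 0.05 by edgeR 3 were higher and 1 was lower, against 8.29% and 7.56% of all genes. Hif1a, the alpha subunit of HIF, had a log2 fold change of -0.13 (SE 0.05, adjusted p = 0.234 by edgeR), opposite in sign to most members. Egln1, the main HIF prolyl hydroxylase and itself a HIF target, had 50.1, 50.1, 50.8 and 43.8 CPM under PBS and 55.7, 58.9, 56.5 and 54.8 CPM under rFSTL1. As in Ndrg1 and Bnip3, its libraries separated and PBS replicate 4 was lowest. Its log2 fold change was 0.21 (SE 0.06, adjusted p = 0.119 by edgeR). Epas1 had 0 counts under PBS, and Egln3 had 0 counts in all libraries.

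**Figure D5:**
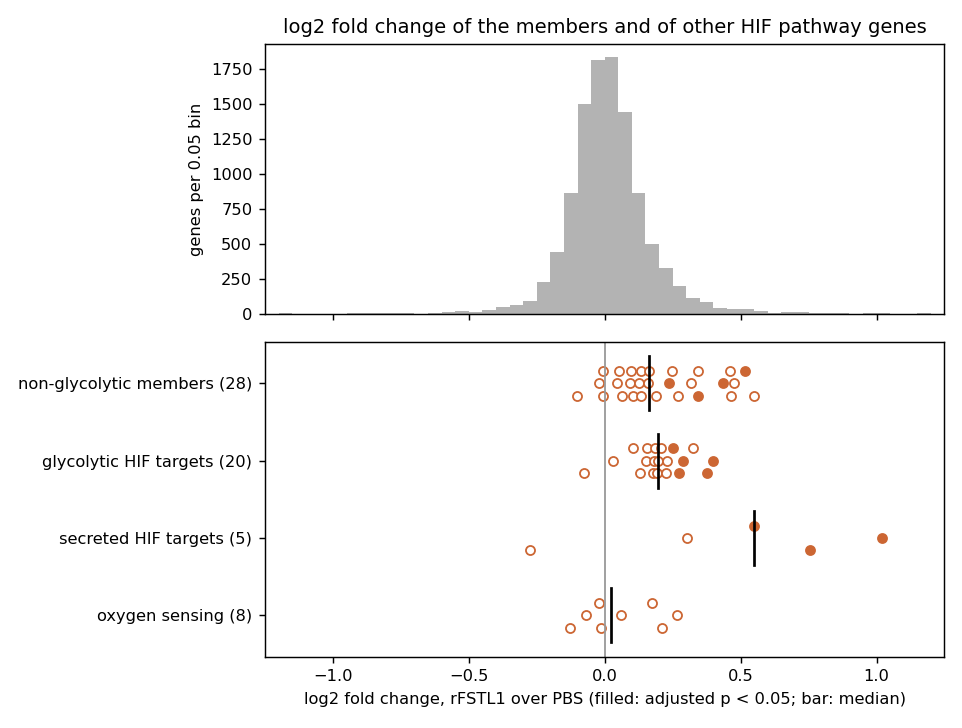
Top, number of genes per 0.05 bin of log2 fold change for all 10748 genes tested, with values beyond the axis placed in the end bins. Bottom, the same quantity for each tested gene of the members and of 3 other HIF pathway lists (filled points, adjusted p under 0.05; bar, median), where the members' median of 0.16 lies between 0.02 for oxygen sensing and 0.19 for the glycolytic targets.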

How the data were processed

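Poly(A) RNA of RAW264.7 cells, in 4 PBS and 4 rFSTL1 libraries, was sequenced on an Illumina NovaSeq instrument. Groups came from the treatment label. The authors deposited expected counts (estimated counts) per Ensembl gene, without normalization. The submitters' processing notes name Bowtie2 2.2.8, HISAT2, StringTie 1.3.1 and DESeq2, with no role given, and the genome build is not given in the sources used here. Of the nonzero values 13.0% were not whole, and all were rounded. A symbol was missing in 112 rows, and 0 count columns were left unmapped.

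The filterByExpr function (minimum count 10) chose the genes to test. After TMM scaling the groups were tested by glmQLFTest on a glmQLFit model (edgeR 4.0.16, R 4.3.3), at an adjusted p under 0.05. Standard errors came from the fold change and the F statistic. Exact permutation tests over 70 assignments used log2(CPM + 1) for single members and log2 count ratios for paralog pairs. Without 1 library fewer assignments are possible. No pair of libraries agreed within sampling noise (chi-square per degree of freedom at least 3.03). Transcript lengths and overlaps came from GENCODE M21. All 36 members are named, with values per library for those with p under 0.05, without overlap or highest in their group. Other pathway genes are named where called, with an exception that is not reported here, and Hif1a, Egln1, Epas1, Egln3 and Angptl4 were chosen after their values were seen. The members and lists were chosen with earlier results of these data known. Alternatives were DESeq2 1.42.0, limma voom 3.58.1, other scalings, filters and thresholds, a replicate block and leaving out each library.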

Additional observations from a re-analysis of the deposited data

Results flagged for a closer look

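Over 58 groups of 4 libraries (28 members and their mean, in each treatment), 6 held a library far from the other 3 by Dixon's ratio, and chance alone would give about 2.9. The mean of the tested members was -0.12 in PBS replicate 4, against 0.03 to 0.05 in the other PBS libraries. Car12 was 90.6 CPM in the same library, against 102 to 103 CPM. Higd1a was 56.3 CPM in rFSTL1 replicate 2, against 36.7 to 39.4 CPM. Ddit4 was 9.42 CPM in rFSTL1 replicate 1, against 11.3 to 11.4 CPM. Narf was 15.2 CPM in PBS replicate 3, against 12.7 to 12.99 CPM. Ppfia4 was 1.90 CPM in rFSTL1 replicate 4, against 1.34 to 1.42 CPM.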

How the results depend on the processing

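The number of members with an adjusted p under 0.05 was 4 by edgeR, 10 by DESeq2, 11 by limma voom with sample quality weights, 9 where every gene with a count was kept and 9 at a threshold of 0.1. It was 1 to 6 in the fits that each left out 1 library, lowest without PBS replicate 2, PBS replicate 3 or rFSTL1 replicate 3, and 0 of the called members were lower in any fit. All genes called were 37 by edgeR (0.344% of those tested), 191 by DESeq2 (2.43%) and 454 by limma voom (4.22%). They were 127 where every gene with a count was kept (0.863%) and 133 at a threshold of 0.1 (1.24%). Without 1 library they were 11 to 99 (0.102% to 0.914%). The 8 called genes of the other HIF pathway lists became 16 by DESeq2, 21 by limma voom, 14 where every gene with a count was kept and 3 to 13 without 1 library. Without 1 library the members' median was 0.13 to 0.18. The number of members without overlap was then 14 to 17, and the share of all genes 9.95% to 15.6%, a count that leaving out a library can only keep or raise at a fixed scaling. For each of these the cause was not tested.

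Members near 0 changed sign. With upper-quartile scaling Kdm3a was 0.0056 and Wsb1 was 0.0054. Over the fits without 1 library Kdm3a ran from -0.027 to 0.014, Kdm4c from -0.093 to 0.023, Wsb1 from -0.046 to 0.046, Mxi1 from -0.0013 (without PBS replicate 4) to 0.099, Insig2 from -0.013 to 0.127 and the Bhlhe40 to Bhlhe41 difference from -0.038 to 0.111. These ratio tests were chosen after seeing the data. DESeq2 gave no adjusted p for Car9, Ddit4, Ankrd37, Narf and Ppfia4, and Car9 and Ppfia4 had a mean under 50 counts, so these fits are left out here. Of the other 413 fits of single members under an alternative, 352 kept direction and call, 17 lost the call, 29 gained it and 15 changed sign.

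The labels link libraries across groups only by number. Over all genes tested, the deviations of those with the same number correlated at -0.090, 0.085, -0.013 and 0.001. Whether libraries with the same number shared a batch was not tested. A replicate block in the fit gave 5 called members and 41 called genes (0.381% of those tested). Ak4 and Bnip3l were added and Jmjd6 was lost, and the members' median was 0.16.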
